A study of Mus musculus with 44 samples.

Results

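Gene expression in the hippocampus of C57BL/6J mice fed the control diet was compared between 18 and 15 months of age. The comparison used 16 of the 44 libraries of the series, 1 library per mouse: 8 labelled 18M-CD and 8 labelled 15M-CD. CD is read as the control diet and MR as the methionine restriction named in the series title, and all 44 mice carry the same strain label. The labels name no transgene, no other treatment and no sex, so the groups compared differ by label in age alone. The members were all loci with at least 1 FPKM (fragments per kilobase of transcript, scaled to the fragments of the library) in at least 6 of the 16 libraries, which kept 12431 of 13218 loci and left out 787. The spread between libraries was estimated with the other 4 groups included, which also served as reference levels: 5M-CD (6 libraries) and 5M-MR (7) at 5 months, 15M-MR (8) at 15 months and 18M-MR (7) at 18 months.

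The hippocampus forms new memories, and its circuit runs from the granule cells of the dentate gyrus through the CA3 and CA2 fields to the pyramidal cells of CA1. In ageing rodents this tissue is known for a loss of newborn neurons, a rise of glial and immune transcripts, and altered myelin, the insulating sheath that oligodendrocytes wrap around axons. The interval from 15 to 18 months lies late in the adult life of the mouse.

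Transcripts that define the hippocampus were present in the libraries of both ages. C1ql2, a marker of dentate granule cells, lay between 31.2 and 73.8 FPKM at 15 months and between 11.8 and 117 at 18 months. Fibcd1, a marker of CA1 pyramidal cells, lay between 16.8 and 33.4 FPKM and between 17.4 and 40 FPKM. The FPKM of a library summed to 243882 ± 17604 (SD, n = 8) at 15 months and 239364 ± 13350 (SD, n = 8) at 18 months, a difference within the spread of the libraries (2-sided exact permutation p = 0.594, adjusted over 5 measures of library composition 0.973). The low values showed no steps that would give back read numbers, so the depth behind a value is unknown.

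Age and sequencing lane were almost completely confounded. Of the 18M-CD libraries, 7 were sequenced on lane 2 and 1, library 18M-CD 9, on lane 3, whereas 5 of the 15M-CD libraries were on lane 3 and 3 on lane 4. Age and lane can therefore be set apart only through 18M-CD 9 against the 5 lane 3 libraries of 15M-CD, a contrast of 1 mouse, or through a fit with lane as a factor that borrows from the other groups. A further library stood apart from its label. At 8 loci that separated the ages on both diets, 18M-CD 3 lay inside the range of the 15M-CD libraries at 7 and nearer to the 15-month than to the 5-month mean at all 8, while the other 18M-CD libraries lay inside that range at 1 locus at most. Results that rest on this library are given with and without it.

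Between 15 and 18 months, 10 of 12431 loci changed (0.0804% of loci; limma, adjusted p under 0.05), 7 of them higher (0.0563%) and 3 lower (0.0241%) at 18 months. The loci that rose were Gm13304, a predicted gene next to the Ccl21 chemokine genes, a locus shared by Tmem254c and Tmem254b, which encode a small transmembrane protein, a locus shared by 2 predicted genes, and 4 loci without a gene symbol. Those that fell were Prdm4, which encodes a zinc finger protein of the PR-domain family, a locus of Pdhx, which encodes a structural subunit of the pyruvate dehydrogenase complex, and 1 locus without a symbol. At an unadjusted p under 0.05 there were 833 loci (6.7%), 262 higher (2.11%) and 571 lower (4.59%). The median difference over all loci was −0.03 on the log2(FPKM + 1) scale, 46.1% of loci lay above 0, and the 5th and 95th percentiles were −0.45 and 0.44. The FPKM of the ages did not overlap at 5 loci (0.0402%), 1 higher (0.00804%) and 4 lower (0.0322%). When 18M-CD 3 was left out this number was 14 (0.113%), of which 8 were higher. That library was singled out by its level at the 8 loci that separated the ages on both diets. Of those, 7 are among the 14, so the larger number adds no support. Of 12431 loci the number was 11 without 15M-CD 7 or 15M-CD 8, 9 without 18M-CD 5 and 8 without 18M-CD 1. Fits without 1 library each called between 5 and 11 loci, and the fit without 18M-CD 3 called 10. The call number dropped to 5 without 18M-CD 1, and to 6 when 15M-CD 2, 18M-CD 2 or 18M-CD 9 was missing.

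The changes at 8 of the 10 loci were also called in the independent mice of the MR groups, in the same direction. The comparison of 18M-MR with 15M-MR shares no library with that of the control diet and called 12 loci (0.0965%), 9 higher (0.0724%) and 3 lower (0.0241%), with 932 loci (7.5%) at an unadjusted p under 0.05, 155 higher (1.25%) and 777 lower (6.25%). Thus the 8 shared loci were 80% of the calls in CD and 66.7% of the calls in MR. The ages fell on different lanes there too, with all 8 15M-MR libraries on lane 4 and the 7 of 18M-MR on lanes 3 (6 libraries) and 1. Gm13304 and the Tmem254 locus were among the shared loci, and both lie in regions where the reference genome holds nearly identical gene copies. The windows below, 300 bases at the RefSeq gene starts and mostly upstream of them, are shown to let the copies be compared. Whether the reads of the transcripts could be assigned to 1 copy was not tested, so the values are uncertain as values of a single gene. The windows are RefSeq sequences of GRCm38.p6, written in the direction of transcription. The Gm13304 window lies at chr4:42114537-42114836 on the plus strand and that of Ccl21a, which encodes a chemokine that guides T cells and dendritic cells, at chr4:42773942-42774241 on the minus strand. Capitals in the Ccl21a window mark the 3 bases that differ from Gm13304 among 299 aligned, an identity of 99%.
Gm13304: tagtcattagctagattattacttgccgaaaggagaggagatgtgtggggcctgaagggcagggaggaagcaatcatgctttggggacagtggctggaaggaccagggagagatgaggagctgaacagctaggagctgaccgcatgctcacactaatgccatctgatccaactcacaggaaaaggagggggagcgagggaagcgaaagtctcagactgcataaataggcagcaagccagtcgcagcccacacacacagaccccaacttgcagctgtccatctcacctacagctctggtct
Ccl21a: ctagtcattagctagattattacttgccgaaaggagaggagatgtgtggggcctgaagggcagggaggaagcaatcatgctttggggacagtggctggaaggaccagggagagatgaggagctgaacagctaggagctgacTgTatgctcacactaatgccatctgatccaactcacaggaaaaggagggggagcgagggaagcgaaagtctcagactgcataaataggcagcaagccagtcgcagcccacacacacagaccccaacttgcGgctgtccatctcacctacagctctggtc
The window of Gm10591, another predicted gene at chr4:42611873-42612172 on the plus strand, was identical to that of Gm13304 over all 300 bases. The window of Tmem254c lies at chr14:26067376-26067675 on the minus strand.
Tmem254c: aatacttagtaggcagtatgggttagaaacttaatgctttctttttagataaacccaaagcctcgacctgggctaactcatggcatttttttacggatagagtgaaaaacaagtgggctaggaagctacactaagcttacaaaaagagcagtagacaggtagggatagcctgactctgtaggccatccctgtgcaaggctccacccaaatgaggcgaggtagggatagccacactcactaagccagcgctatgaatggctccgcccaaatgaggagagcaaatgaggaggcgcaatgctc
The window of Tmem254a at chr14:25927623-25927922, also on the minus strand, matched it over 300 bases, and that of Tmem254b at chr14:26206976-26207275 over the 284 bases the windows share.

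Gm13304 (chr4:42114817-42115917, plus strand) was close to absent in the 15M-CD libraries and measurable in 7 of the 8 18M-CD libraries. Its FPKM at 15 months had a lowest value of 0.0086, a median of 0.0194 and a highest of 0.0439. At 18 months the lowest was 0.0279 in 18M-CD 3, the median 3.22 and the highest 5.68, and the libraries other than 18M-CD 3 began at 1.63. The groups thus overlapped only through 18M-CD 3. Gm13304 rose by 1.85 (SE 0.28) on the log2(FPKM + 1) scale (adjusted p = 0.00033) and by 2.11 without that library (adjusted p = 6.69e-07). Since 18M-CD 3 was singled out by its level at these loci, leaving it out had to enlarge the difference at them, and the smaller p adds no support. The 5M-CD libraries were higher still, between 4.65 and 7.75 FPKM with a median of 5.66. The MR libraries had the same order, with medians of 4.49 FPKM at 5 months, 0.0292 at 15 months and 4.22 at 18 months, so that Gm13304 was low in all 16 libraries of 15 months.

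The Tmem254c/Tmem254b locus showed the same order over a narrower range. Its FPKM lay between 2.79 and 3.94 at 15 months, with a median of 3.29, and between 3.71 and 12.6 at 18 months, with a median of 8.94. Library 18M-CD 3 held the 3.71, and the next lowest 18M-CD library stood at 6.41. The locus rose by 1.12 (SE 0.177; adjusted p = 0.00047), and by 1.26 without 18M-CD 3 (adjusted p = 6.71e-06). The 5M-CD median was 10.3 FPKM. Of the 10 called loci it was the single one still called with lane as a factor, where its difference was 1.47 (adjusted p = 0.0376). Within lane 3, 18M-CD 9 stood at 10.8 FPKM and the 15M-CD libraries at 2.86 to 3.52. At Gm13304 18M-CD 9 stood at 3.59 FPKM, and the 15M-CD libraries of lane 3 at 0.0439 at most. This is a contrast of 1 mouse without a test, and Prdm4, given below, changed sign in it. The third named locus, shared by the predicted genes LOC101055676 and LOC100041599, was at a median of 0.13 FPKM at 15 months, 1.58 at 18 months and 2.11 in 5M-CD, and rose by 1.22 (SE 0.252; adjusted p = 0.0251). That call was lost in 9 of the 16 fits that left out 1 library, namely when any of 15M-CD 1, 2, 3, 4, 9 and 18M-CD 1, 2, 5, 9 was missing, whereas without 18M-CD 3 the adjusted p was 0.00219.

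The loci without a gene symbol repeated the pattern in both directions. MSTRG.24886 was the only locus at which every 18M-CD library lay above every 15M-CD library: its FPKM was between 0.00865 and 0.0389 at 15 months and between 0.0592 and 6.59 at 18 months, where 18M-CD 3 held the 0.0592 and the other libraries lay between 1.65 and 6.59. It rose by 2.0 (SE 0.262; adjusted p = 2.26e-05), or by 2.27 without 18M-CD 3 (adjusted p = 3.98e-09), and its median in 5M-CD was 5.8 FPKM. MSTRG.9728 was listed at 0 in 6 of the 8 15M-CD libraries and reached 0.0165 in the highest. At 18 months it was listed at 0 in 18M-CD 3, with a group median of 2.14 and a highest value of 4.68. It rose by 1.62 (SE 0.258; adjusted p = 0.00047), or by 1.85 without 18M-CD 3 (adjusted p = 2.4e-06), and in 5M-CD it lay between 1.44 and 4.74 FPKM. MSTRG.43220 went the other way, with 1.8 to 7.93 FPKM at 15 months and a median of 0.0799 at 18 months, where 18M-CD 6 at 4.21 and 18M-CD 3 at 3.74 were high. It fell by 1.95 (SE 0.317; adjusted p = 0.000578), or by 2.17 without 18M-CD 3 (adjusted p = 2.33e-05), and in 5M-CD the highest value was 0.138 FPKM. On lane 3, 18M-CD 9 stood at 4.23 FPKM for MSTRG.24886, 3.07 for MSTRG.9728 and 0.0657 for MSTRG.43220. The 15M-CD libraries of that lane reached 0.0389 for MSTRG.24886 and 0.0165 for MSTRG.9728, and began at 5.25 for MSTRG.43220. The remaining 2 loci without a symbol rose by 1.46 and 1.23 (adjusted p = 0.0176 and 0.0251). The first of these calls was lost when 15M-CD 2, 18M-CD 1, 18M-CD 2 or 18M-CD 9 was missing, and the second in the same 9 fits as the LOC101055676 locus.

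**Figure D1:**
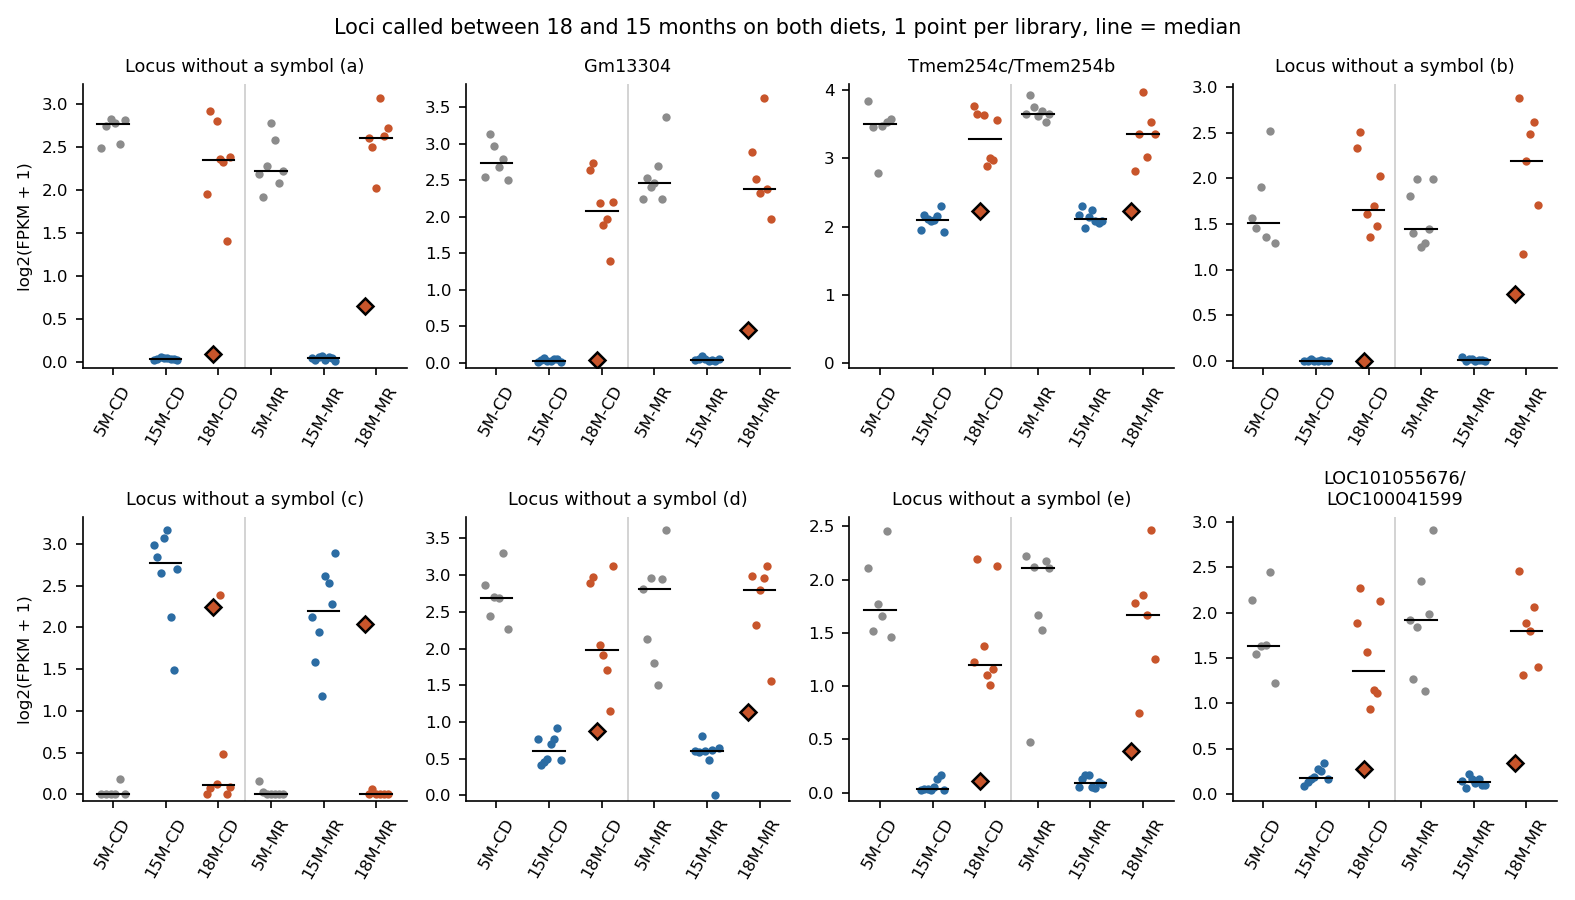
Level on the log2(FPKM + 1) scale of the 8 loci called on both diets, 1 point per library in each of the 6 groups of age and diet, with 18M-CD 3 and 18M-MR 1 drawn as black-edged diamonds and loci without a symbol lettered a to e (a is MSTRG.24886, b MSTRG.9728 and c MSTRG.43220). The libraries of 15 months sit apart from those of 5 months and from most of those of 18 months, and the 2 diamonds sit at or near the 15-month level.

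The plot of the 8 shared loci shows that most 18-month libraries lay nearer to the 5-month than to the 15-month mean, and that 1 library of each diet at 18 months did not. Library 18M-MR 1 lay nearer to the 15-month than to the 5-month mean at all 8 loci and inside the 15-month range at 2. The same order appeared at Gabra2 (chr5:70957597-71095849, minus strand), which encodes the alpha 2 subunit of the GABA-A receptor and whose transcript is known to be lower in C57BL/6J than in related strains. Its FPKM was between 3.82 and 6.85 in 5M-CD, between 8.77 and 22.2 in 15M-CD and between 1.94 and 13.4 in 18M-CD. The highest 18M-CD values were 13.4 in library 6 and 12.5 in library 3, the next 9.6 in library 2. The difference from 15 to 18 months was −0.79 (SE 0.268; adjusted p = 0.657) and did not pass the test. In MR the medians were 16.2 FPKM at 15 months and 6.91 at 18 months, and 18M-MR 1 was the highest of its group at 16.3. Nnt, which encodes the mitochondrial transhydrogenase and is known to be partly deleted in C57BL/6J, was chosen after its values were seen. It had medians of 3.17 FPKM in 5M-CD, 5.52 in 15M-CD and 4 in 18M-CD, where 18M-CD 3 was the highest at 5.96, and a difference of −0.40 (SE 0.174; adjusted p = 0.722). In MR, 18M-MR 1 did not stand apart at Nnt, with 3.82 FPKM in a group that ran from 1.76 to 3.93. The 15M-MR libraries lay between 4.24 and 6.3, except for 15M-MR 2 at 1.12. All libraries carry the label C57BL/6J, and the part that the origin of the mice or the lanes had in these values was not tested.

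Prdm4 and Pdhx fell in the control diet and were not called in MR. Prdm4 (chr10:85891966-85917142, minus strand) encodes a zinc finger protein known to bind the p75 neurotrophin receptor and to slow cell division. In the 15M-CD libraries its FPKM was 4.76, 4.28, 4.65, 3.8, 4.79, 4.42, 4 and 4.66. In the 18M-CD libraries 1, 2, 3, 5, 6, 7, 8 and 9 it was 0.949, 4.22, 0.911, 0.847, 0.834, 2.31, 1.31 and 4.96. Thus 6 libraries of 18 months lay below every library of 15 months, and 18M-CD 2 and 18M-CD 9 lay within or above their range. Prdm4 fell by 0.99 (SE 0.194) on the log2(FPKM + 1) scale (adjusted p = 0.0154). The 6 low libraries were all on lane 2, and the 1 library of 18 months on lane 3 was the one above the range, so that within lane 3 the difference was 0.13, the opposite sign, without a test. With the 16 libraries of the comparison fitted alone Prdm4 was not called (adjusted p = 0.462). The call was lost without 18M-CD 1 or 18M-CD 5, with adjusted p up to 0.0626, and held without 18M-CD 3 (−0.92, adjusted p = 0.0451). With lane as a factor the difference was −0.58 (adjusted p = 0.999). In MR it was −0.04 (SE 0.201), with medians of 4.12 FPKM at 15 and 4.49 at 18 months, and 5M-CD lay between 4.24 and 5.92. Of the 4 tested genes of the PRDM family, which encode transcription regulators and histone methyltransferases, 1 lay above 0 and the median was −0.37, or 0.12 with lane as a factor. Prdm8, which acts in neuron development, had a difference of −0.51 (SE 0.197; adjusted p = 0.722), and Prdm2 of 0.15.

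Pdhx (chr2:103021075-103073513, minus strand) encodes the subunit that anchors dihydrolipoamide dehydrogenase in the pyruvate dehydrogenase complex, the enzyme that feeds pyruvate into the citric acid cycle. The symbol stands on 2 loci of the table, so the values of each are uncertain as values of the gene. At the locus that fell, the FPKM in 15M-CD was 4.36, 3.8, 4.58, 4.26, 4.27, 3.16, 2.91 and 4.64. In 18M-CD it was 0.502, 0.106, 0.377, 3.17, 0.308 in libraries 1, 2, 3, 5 and 9, and it was listed at 0 in libraries 6, 7 and 8. The groups overlapped through 18M-CD 5 alone. The fitted difference was −1.85 (SE 0.392; adjusted p = 0.0311), and it held the same sign within lane 3 at −2.0. The call was lost in 13 of the 16 fits that left out 1 library, with adjusted p up to 0.0992 and differences between −2.08 and −1.79, and held only without 15M-CD 7, 15M-CD 8 or 18M-CD 5. Without 18M-CD 3 the adjusted p was 0.0578. The second Pdhx locus had medians of 5.62 FPKM at 15 months and 4.62 at 18 months, a difference of −0.19 (SE 0.126; adjusted p = 0.794). In MR the called locus went from a median of 3.61 to 0.51 FPKM over a range from 0.161 to 5.52 at 18 months, a difference of −0.61 that did not pass (adjusted p = 0.766). The 15M-MR libraries ranged from 0.226 to 4.91 FPKM. At 5 months the called locus lay between 2.97 and 5.21 FPKM in 5M-CD. In 5M-MR it was at 0.327, 0.143, 0.281, 4.36, 5.16, 3.92 and 0.438 FPKM, so values near 0 were not particular to 18 months.

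All 11 tested loci of the pyruvate dehydrogenase complex and its regulators lay below 0, where 46.1% of all loci lay above it. The list was chosen with earlier results of these data known and holds both Pdhx loci, so this count describes it and gives no support. Where 4.59% of all loci were lower at an unadjusted p under 0.05 in the limma fit, 3 of the 11 were, and 1, the called Pdhx locus, passed. Their median difference was −0.30 against −0.03 over all loci, with −0.37 to −0.23 when each library was left out and −0.28 without 18M-CD 3. Pdk1, a kinase that switches the complex off, had a median of 4.02 FPKM at 15 months and 2.5 at 18 months and a difference of −0.62 (SE 0.261; adjusted p = 0.722). Pdpr, a regulator of the phosphatase that switches it on, had a difference of −0.84 (SE 0.37; adjusted p = 0.722). Both turned positive within lane 3, at 0.17 for Pdk1 and 0.63 for Pdpr. Mpc2, a subunit of the pyruvate carrier of mitochondria, had a difference of −0.31 and did not pass. The median of the 11 loci was −0.41 within lane 3, −0.22 with lane as a factor and −0.17 in MR. The tricarboxylic acid cycle, which takes up the product of the complex, had a median of −0.07 over 15 loci, with 0 passed and 3 above 0. Where 4.59% of all loci were lower at an unadjusted p under 0.05, 1 gene of this list was. That gene was Sdhd, a membrane anchor of succinate dehydrogenase, with 38.7 and 27.6 FPKM as medians and a difference of −0.33 (SE 0.138; adjusted p = 0.722).

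**Figure D2:**
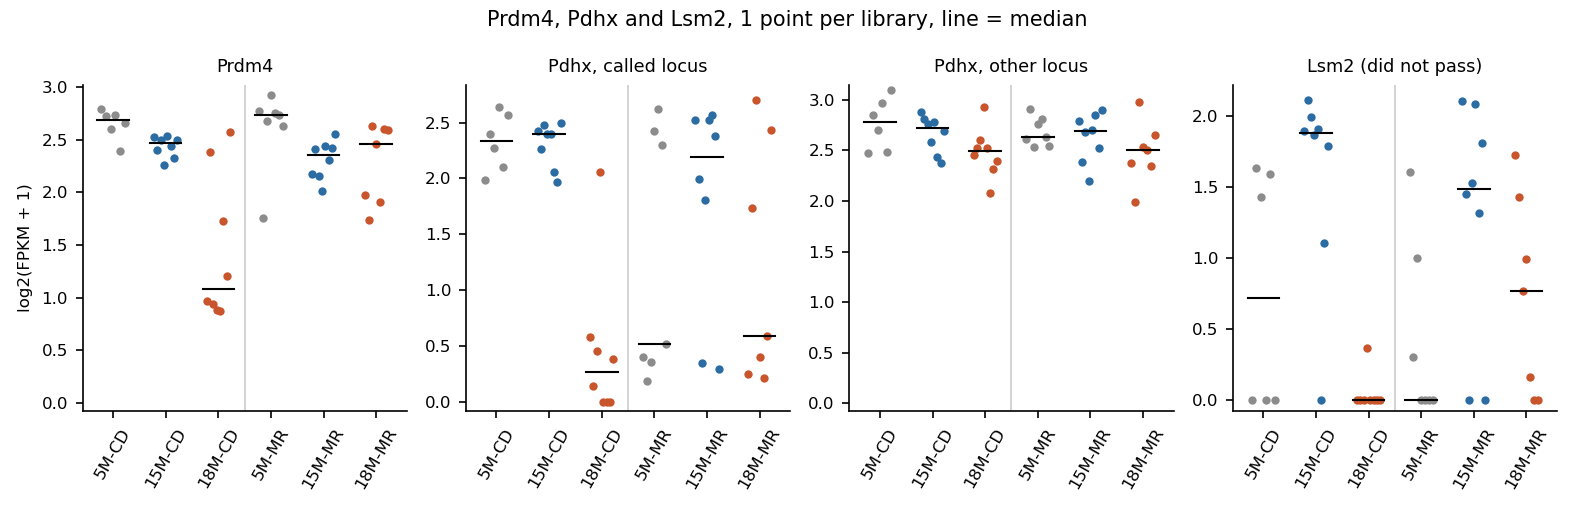
Level on the log2(FPKM + 1) scale of Prdm4, of the called and the other locus of Pdhx and of Lsm2, 1 point per library in the groups of age and diet, with a line at the median of each group. For Prdm4, 6 of the 8 18M-CD libraries lie below all 15M-CD libraries, which begin at 3.8 FPKM, and 2 lie at 4.22 and 4.96.

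Among genes with a symbol that did not pass, Lsm2 came closest to the threshold. Lsm2 encodes a ring protein of the spliceosome and of mRNA decay. It was listed at 0 in 7 of the 8 18M-CD libraries and at 0.286 FPKM in 18M-CD 5, while the 15M-CD libraries stood at 2.71, 3.33, 2.97, 2.65, 2.75, 0, 1.15 and 2.45. Its difference was −1.54 (SE 0.339; adjusted p = 0.0539), and it passed without 15M-CD 7, the library listed at 0 (adjusted p = 0.00657). It also passed with quantile normalization (adjusted p = 0.0459), with the label number as a replicate block (adjusted p = 0.0311) and with array weights (adjusted p = 0.0068). It did not pass in the other 15 fits that left out 1 library, with adjusted p up to 0.164, nor with the 16 libraries fitted alone (adjusted p = 0.0817), and with lane as a factor its difference was −1.29 (adjusted p = 0.999). The 5M-CD libraries lay between 0 and 2.1 FPKM.

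Calb1, which encodes the calcium buffer calbindin of dentate granule cells, had a lowest value of 25.4, a median of 40.3 and a highest of 49 FPKM at 15 months, and 9.05, 17.6 and 34.9 at 18 months. All 8 libraries of 18 months lay below the 15-month mean. The difference of −0.92 (SE 0.227) did not pass (adjusted p = 0.194), and within lane 3 it was −1.38. Hrk, which encodes a protein that promotes cell death, lay between 8.42 and 12.5 FPKM at 15 months and between 3.05 and 9.05 at 18 months, a difference of −0.60 (SE 0.161; adjusted p = 0.369). Ogn, a proteoglycan gene of the meninges, had medians of 3.77 and 1.08 FPKM and a difference of −0.94 (SE 0.256; adjusted p = 0.38). Its 5M-CD median was 1.19 FPKM, and its MR difference was −0.99. Ogn was the lowest of 7 tested loci that mark meninges and fibroblasts, whose median was 0.10 with 5 above 0, against 46.1% of all loci. Capn3, a calcium-activated protease gene, had medians of 3.5 and 0.656 FPKM and a difference of −1.14 (SE 0.321; adjusted p = 0.426). Fam131b and Tsr2, a factor of ribosome assembly, had differences of −0.54 and −0.51 (adjusted p = 0.426 for both). Locus Dynlt1-ps1, a pseudogene, was 1 of the 4 loci at which every 18M-CD library lay below every 15M-CD library, with 2.86 to 6.02 FPKM at 15 months, 1.62 to 2.68 at 18 months and a difference of −0.62 (adjusted p = 0.317). The other three were Commd10, Rnf128 and a locus shared by LOC108168243 and Top1mt, at −0.27, −0.35 and −0.75, none of which passed (adjusted p = 0.722, 0.632 and 0.722). With array weights, which count libraries that deviate more for less, Calb1, Ogn, Fam131b, H2-D1 and Lrp11 were called among the genes named here as not passed, beside Lsm2.

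On the higher side, Hspb6, a small heat shock protein gene, lay between 1.7 and 3.71 FPKM at 15 months and between 3.14 and 9.11 at 18 months. Its difference was 0.74 (SE 0.195; adjusted p = 0.36), with 0.45 within lane 3. Gsk3b, which encodes the kinase that phosphorylates tau and beta-catenin, ranged from 0.527 to 10.8 FPKM at 15 months, with a median of 2.57, and from 8.16 to 14.5 at 18 months, with a median of 11.6. The 5M-CD median of 11.8 FPKM was near the 18-month one, and the wide range at 15 months left an adjusted p of 0.38. Ptpn11, which encodes the phosphatase SHP2 of growth factor signalling, lay between 11.5 and 21.6 FPKM and between 18.2 and 27.2 FPKM, a difference of 0.54 (SE 0.151; adjusted p = 0.426). Mtss1, which encodes a membrane-bending protein of dendritic spines, was at most 0.451 FPKM at 15 months and had a median of 2.58 at 18 months (difference 1.33, SE 0.346; adjusted p = 0.33). Map4k4, a kinase gene, had a difference of 2.0 (SE 0.548; adjusted p = 0.414). Mettl1, which encodes a tRNA methyltransferase, Pogk and Wnk1, a kinase of ion transport, had differences of 0.78, 1.21 and 0.86 (adjusted p = 0.436, 0.565 and 0.565). Lrp11 and Phf23, each a symbol on 2 loci, had differences of −2.72 and −1.57 at 1 of them (adjusted p = 0.426 and 0.438), with several libraries listed at 0.

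Transcripts of mature oligodendrocytes and myelin lay to the higher side at 18 months, although none passed the test across all loci. Their list was chosen with earlier results of these data known. Of 21 tested loci 20 lay above 0, against 46.1% of all loci. Where 2.11% of all loci were higher and 4.59% lower at an unadjusted p under 0.05 in the limma fit, 7 of the 21 were higher and 0 lower. Their median difference was 0.28, with 0.18 without 15M-CD 4 and 0.44 without 15M-CD 2. In a bulk sample, more cells of a type and more RNA per cell cannot be told apart. Mbp, myelin basic protein, had a lowest value of 182, a median of 424 and a highest of 669 FPKM at 15 months, and 541, 646 and 1340 at 18 months. All 8 libraries of 18 months lay above the 15-month mean, and the difference was 0.77 (SE 0.248; adjusted p = 0.632). Mobp, another structural protein of myelin, had medians of 208 and 216 FPKM and a difference of 0.61 (SE 0.273; adjusted p = 0.722), with ranges from 67.4 to 261 FPKM and from 193 to 485 FPKM. Cryab, a small heat shock protein gene active in oligodendrocytes, had medians of 67.5 and 95.2 FPKM, and Trf, which encodes the iron carrier transferrin, of 77.9 and 105. Their differences were 0.53 (SE 0.198) and 0.56 (SE 0.228), both with adjusted p = 0.722. Ppp1r14a and Gjb1, the gap junction gene of myelin, had differences of 0.60 and 0.49, and Ugt8a, which makes myelin lipids, was the 1 locus below 0 at −0.13.

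Age and lane cannot be told apart in the myelin values. Within lane 3 the median difference of the 21 loci was −0.02, and with lane as a factor −0.04. For Mbp itself, 18M-CD 9 had 590 FPKM on lane 3, where the 5 libraries of 15M-CD had 431, 669, 620, 182 and 418, so that 2 of the 5 lay above it. The 18M-CD libraries on lane 2 lay between 541 and 1340 FPKM, so 18M-CD 9 lay within their range too. For Ppp1r14a and Gjb1 it was the lowest 18M-CD library, at 27 and 6.65 FPKM. The Mbp difference was 0.48 within lane 3 and 0.41 with lane as a factor. In MR the list had a median of −0.15 with 5 of 21 loci above 0 where 36.2% of all loci lay above it, while Mbp and Mobp lay at 0.29 and 0.35, on the same side as in CD. Cryab, Trf and Gjb1 lay at −0.15, −0.19 and −0.25, and their difference between the diets had unadjusted p of 0.0204, 0.0261 and 0.02 in the limma fit and did not pass adjustment, with 0.186 for Mbp and 0.506 for Mobp. Markers of precursors and newly formed oligodendrocytes had a median of −0.03 over 8 loci. Where 2.11% of all loci were higher at an unadjusted p under 0.05, 1 of the 8 was. That was Bcas1, a gene of early myelinating cells, at 0.94 (SE 0.436; adjusted p = 0.724).

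**Figure D3:**
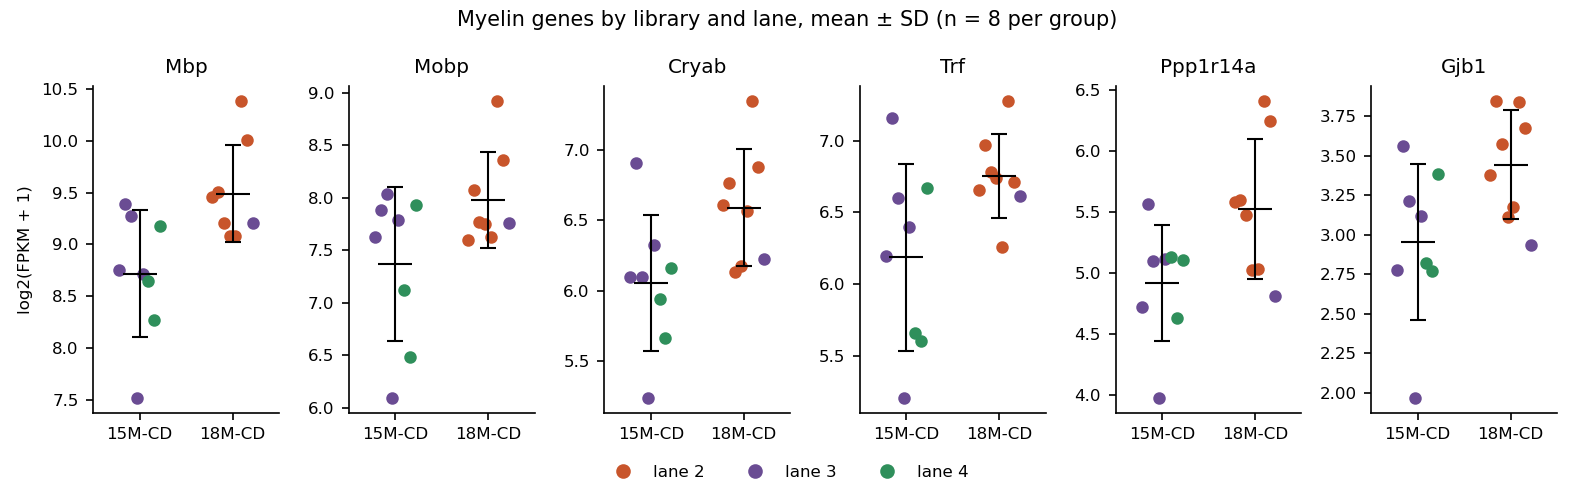
Level on the log2(FPKM + 1) scale of Mbp, Mobp, Cryab, Trf, Ppp1r14a and Gjb1 in the 15M-CD and 18M-CD libraries, 1 point per library coloured by sequencing lane, with mean and SD on that scale (n = 8 per group). The single lane 3 library of 18 months, at 590 FPKM for Mbp, lies among the lane 3 libraries of 15 months.

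Markers of the principal neurons lay mostly below 0 and did not pass. Of all loci 46.1% lay above 0 and 4.59% were lower at an unadjusted p under 0.05 in the limma fit. Of 8 loci that mark CA2 and CA3 pyramidal cells, none lay above 0 and 1 was lower at that p. Their median was −0.25, between −0.31 and −0.22 when each library was left out, −0.26 with lane as a factor and −0.50 in MR. Rgs14, a signalling regulator that marks CA2, had medians of 24.6 and 21.3 FPKM and a difference of −0.53 (SE 0.22; adjusted p = 0.722), and Pcp4, a calmodulin regulator, of −0.37. CA1 markers had a median of −0.20 (−0.28 without 18M-CD 5, −0.10 without 15M-CD 4), with 2 of 10 above 0, and Spink8, a protease inhibitor gene of CA1, had the smallest p among them at a difference of −0.50 (SE 0.249; adjusted p = 0.742). Dentate granule cell markers had a median of −0.17 (−0.30 without 18M-CD 1, −0.05 without 18M-CD 7), with 2 of 10 above 0, and apart from Calb1 none had an unadjusted p under 0.05. Prox1, the transcription factor that defines granule cells, was at −0.04 and C1ql2 at −0.18. With lane as a factor the CA1 and dentate medians were −0.07 and 0.04.

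Peptide genes of interneurons lay on both sides of 0, and the median of the interneuron list lay below it. Cort, the neuropeptide cortistatin, had a lowest value of 2.23, a median of 2.84 and a highest of 4 FPKM at 15 months, and 2.14, 5.59 and 6.94 at 18 months. Its difference was 0.62 (SE 0.19; adjusted p = 0.586), 0.98 within lane 3 and 0.84 in MR. Npy, neuropeptide Y, had medians of 71.9 and 94.5 FPKM, and all 8 libraries of 18 months lay above the 15-month mean on the log2(FPKM + 1) scale. Its difference was 0.44 (SE 0.161; adjusted p = 0.722). The MR difference was 0.49. Sst, somatostatin, was at 0.33, whereas Vip, vasoactive intestinal peptide, was at −0.54 and Cck, cholecystokinin, at −0.21, and none of these passed. Pvalb, the calcium buffer of fast-spiking interneurons, was at 0.43, but at −0.33 within lane 3. The genes of GABA synthesis and transport, Gad1, Gad2 and Slc32a1, were at −0.10, −0.15 and 0.19. The median of the 14 interneuron loci was −0.10, with 6 above 0, and it was 0.00 without 15M-CD 6. At an unadjusted p under 0.05 in the limma fit 3 of the 14 were higher, against 2.11% of all loci. Subunits of the GABA-A receptor had a median of −0.20, or −0.08 without 18M-CD 7, with 2 of 11 above 0.

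Genes of adult neurogenesis had a median of −0.11 over 14 loci (−0.04 without 15M-CD 8), with 4 above 0 and 0 passed in limma. Neurod1, a transcription factor of newborn granule cells, was the 1 of the 14 with an unadjusted p under 0.05, against 6.7% of all loci. It lay between 4.72 and 9.69 FPKM at 15 months and between 2.15 and 6.81 at 18 months, a difference of −0.55 (SE 0.192; adjusted p = 0.679), with −0.48 in MR and −0.49 within lane 3. Sox11, another gene of immature neurons, was at −0.09 and Tubb3 at 0.03. The release machinery of synaptic vesicles had a median of −0.04, with 9 of 19 above 0. Snap25 and Sv2b, a fusion protein and a vesicle protein, had differences of −0.50 and −0.46 (adjusted p = 0.742 and 0.722). Glutamate receptors and their scaffold had a median of −0.08 with 7 of 25 above 0, and immediate early genes, which neuronal firing switches on, of −0.05 with 8 of 21 above 0 and none under an unadjusted p of 0.05. The medians of these 3 lists turned positive without 18M-CD 7, to 0.07, 0.03 and 0.01.

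No tested microglial, complement, MHC class I or interferon-stimulated locus passed the test between 15 and 18 months. Of the 18 interferon-stimulated genes on the list only 3 were tested, and of the 12 complement and MHC class I genes 7. The untested genes are not covered. Homeostatic microglia markers had a median of 0.11 (6 of 10 above 0), disease-associated microglia markers of 0.09 (12 of 14) and complement and MHC class I genes of 0.09 (8 of 9), with 0 passed in limma. At an unadjusted p under 0.05 there was no microglial locus. The complement and MHC list had 1 higher and 1 lower locus at that p, against 2.11% and 4.59% of all loci. The list medians moved with single libraries, the homeostatic one to −0.01 without 15M-CD 6. The disease-associated one moved to 0.03 when 15M-CD 8 was left out or 0.17 when 15M-CD 2 was, and that of complement and MHC to 0.03 without 15M-CD 7 or 0.22 without 18M-CD 3. Both H2 loci at an unadjusted p under 0.05 were loci of H2-D1, a classical MHC class I gene whose symbol stands on 3 loci of the table and whose values are therefore uncertain. The first lay between 4.2 and 8.3 FPKM at 15 months and between 6.67 and 11.5 at 18 months, a difference of 0.55 (SE 0.149; adjusted p = 0.376), against −0.12 in MR. The second had a median of 4.64 FPKM at 15 months and was listed at 0 at the median of 18 months, a difference of −1.61 (SE 0.582; adjusted p = 0.718). Tmem119 and Csf1r, markers of resident microglia, were at −0.05 and 0.16, and Apoe, which microglia and astrocytes secrete, at 0.15. Lgals3bp, an interferon-stimulated gene, lay between 4.08 and 8.32 FPKM and between 5.45 and 11.6 FPKM, a difference of 0.49 (SE 0.169; adjusted p = 0.661). It was the 1 of 3 interferon-stimulated loci that was higher at an unadjusted p under 0.05, against 2.11% of all loci.

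Astrocyte markers had a median of 0.00 over 13 loci, with 6 above 0 and 0 passed in limma. At an unadjusted p under 0.05 in that fit 2 were higher and 1 lower, against 2.11% and 4.59% of all loci. Gfap, the intermediate filament of astrocytes, had medians of 54.6 and 74.5 FPKM and ranges from 42.3 to 80.6 and from 50.8 to 88.6. Its difference was 0.35 (SE 0.137; adjusted p = 0.722), with 0.58 within lane 3 and −0.10 in MR. Aqp4, the water channel of astrocyte endfeet, had medians of 9.24 and 5.63 FPKM and a difference of −1.17 (SE 0.437; adjusted p = 0.722), with −0.68 within lane 3. It stood at 0.1, 0.0747 and 0.103 FPKM in 18M-CD 1, 3 and 5. The other 18M-CD libraries lay between 5.17 and 8.08, within the 15M-CD range of 2.92 to 12.5. Library 5M-CD 2 was also near 0, at 0.106. Slc1a3 and Aldoc were at −0.32 and −0.01. The choroid plexus list had a median of 0.36 over 6 loci (0.10 without 18M-CD 7, 0.65 without 15M-CD 2), but its main gene Ttr, transthyretin, ranged from 12.6 to 3360 FPKM at 15 months and from 58.5 to 3620 at 18 months, and on the log2(FPKM + 1) scale its means of 7.20 and 8.35 did not differ beyond the spread (2-sided exact permutation p = 0.303, adjusted over 5 measures 0.973).

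**Figure D4:**
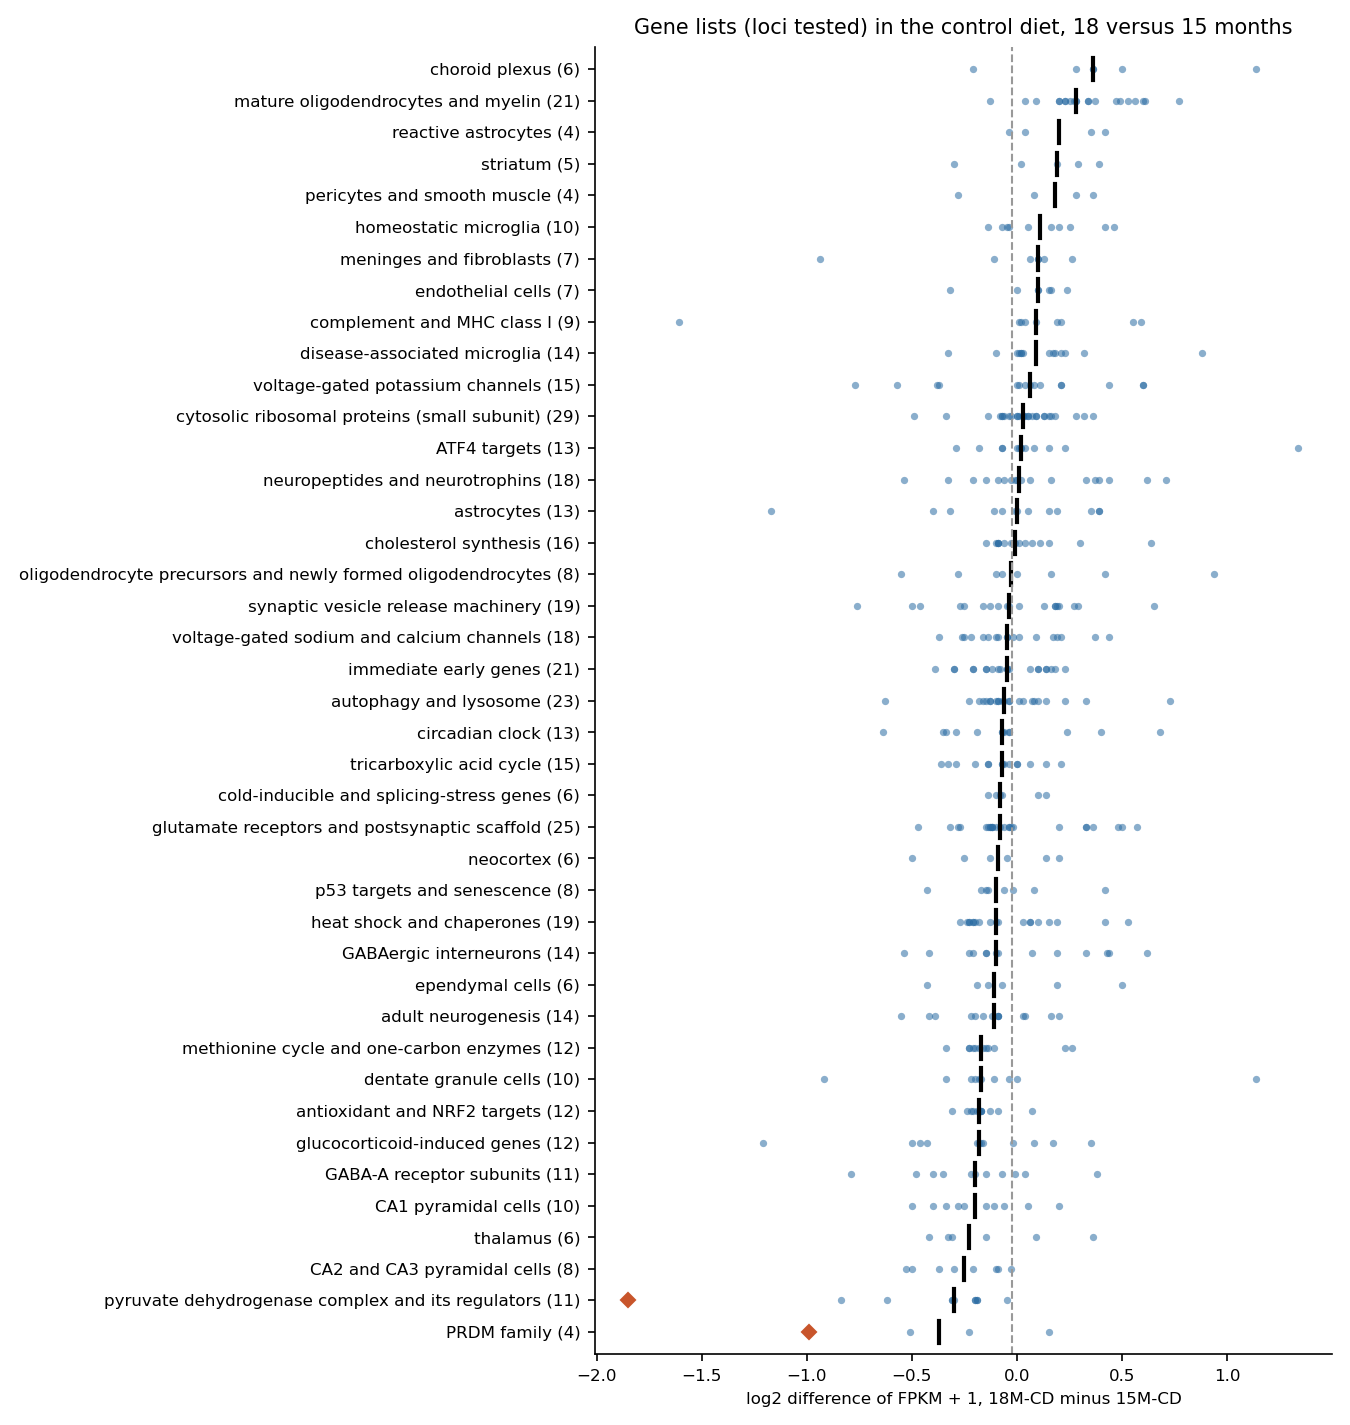
Difference between 18 and 15 months on the control diet, on the log2(FPKM + 1) scale, for each tested locus of the gene lists with at least 4 loci, with a black bar at the list median, a dashed line at the median of all loci (−0.03) and orange diamonds for loci that passed the test. The myelin list lies to the right of the line with a median of 0.28, the list of the pyruvate dehydrogenase complex to the left with −0.30, and the 2 diamonds are Pdhx and Prdm4.

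No gene of the stress, hormone and nutrient lists passed the test. Genes induced by glucocorticoids had a median of −0.18 over 12 loci (−0.12 without 18M-CD 7), with 3 above 0 and 0 passed in limma. Where 4.59% of all loci were lower at an unadjusted p under 0.05 in that fit, 2 of the 12 were. The smallest p was that of Fkbp5, a chaperone of the glucocorticoid receptor whose symbol stands on 2 loci. Its values were 0.561, 5.22 and 5.67 FPKM at 15 months and 0.207, 0.805 and 5.12 at 18 months as lowest, median and highest, a difference of −1.21 (SE 0.41; adjusted p = 0.657). Tsc22d3, which encodes the glucocorticoid-induced leucine zipper protein, had medians of 17.4 and 11.1 FPKM and a difference of −0.50 (SE 0.212; adjusted p = 0.722). Clock genes had a median of −0.07 over 13 loci, and Arntl, which encodes the clock activator BMAL1, a difference of −0.64 (SE 0.24; adjusted p = 0.722), against 0.31 in MR. Targets of ATF4, the transcription factor that answers amino acid shortage, had a median of 0.02 over 13 loci. Slc7a5, a transporter of large neutral amino acids, had medians of 7.02 and 13.2 FPKM, from 0.453 to 16.8 and from 9.4 to 15.7, and a difference of 1.34 (SE 0.463; adjusted p = 0.661), with 1.40 in MR.

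Enzymes of the methionine cycle and one-carbon metabolism had a median of −0.17 with 2 of 12 above 0, and antioxidant and NRF2 target genes of −0.18 with 1 of 12 above 0, none of which passed. Mthfd2, a mitochondrial folate enzyme, was the 1 methionine and one-carbon locus under an unadjusted p of 0.05, against 6.7% of all loci, at 0.23 (SE 0.107; adjusted p = 0.723). Of 5 listed receptor genes of FGF21, the hormone named in the series title, 3 were tested. These differed by less than their standard errors: Fgfr1, Fgfr2 and Fgfr3 had differences of −0.08 (SE 0.148), −0.03 (SE 0.187) and 0.05 (SE 0.154). Phlda3, a target of p53, had medians of 7.91 and 10.2 FPKM and a difference of 0.42 (SE 0.151; adjusted p = 0.716), but −0.03 within lane 3. Atp6v1a, a subunit of the proton pump of lysosomes and synaptic vesicles, had medians of 50.3 and 26.3 FPKM and a difference of −0.63 (SE 0.245; adjusted p = 0.722), with −0.61 within lane 3. Small-subunit ribosomal protein genes had a median of 0.03, with 19 of 29 above 0 and none under an unadjusted p of 0.05.

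No locus passed the test of whether the step from 15 to 18 months differed between the diets. In limma 294 of 12431 loci had an unadjusted p under 0.05 (2.37%), and with lane as a factor 1 locus, Nuak1, passed. The smallest p values among loci with a symbol were those of Ppox, Fkbp5, Znrd1, Brsk2 and Mef2c. Ppox, an enzyme gene of heme synthesis, was at 1.3 in CD and −1.37 in MR, a difference of 2.67 (SE 0.638; unadjusted p = 0.000141, adjusted p = 0.878), with libraries listed at 0 in every one of the 4 groups. Fkbp5 was at −1.21 in CD and 1.11 in MR, a difference of −2.32 (SE 0.59; adjusted p = 0.908). Its MR median was 0.475 FPKM at 15 months and 3.79 at 18 months. Mef2c, a transcription factor of excitatory neurons, was at −0.59 in CD and 1.51 in MR (adjusted p = 1). Brsk2, a kinase of neuronal polarity, was at 0.42 and −0.68, and Znrd1, a symbol on 4 loci, at −1.44 and 0.91 (adjusted p = 1 and 0.908). For Prdm4 the difference between the diets was −0.95 (SE 0.28; unadjusted p = 0.00143, adjusted p = 1) and so did not pass. For the Pdhx locus it was −1.24 (SE 0.564; unadjusted p = 0.0334, adjusted p = 1). Gm13304 and the Tmem254 locus had differences between the diets of −0.42 (SE 0.403) and 0.06 (SE 0.255).

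**Figure D5:**
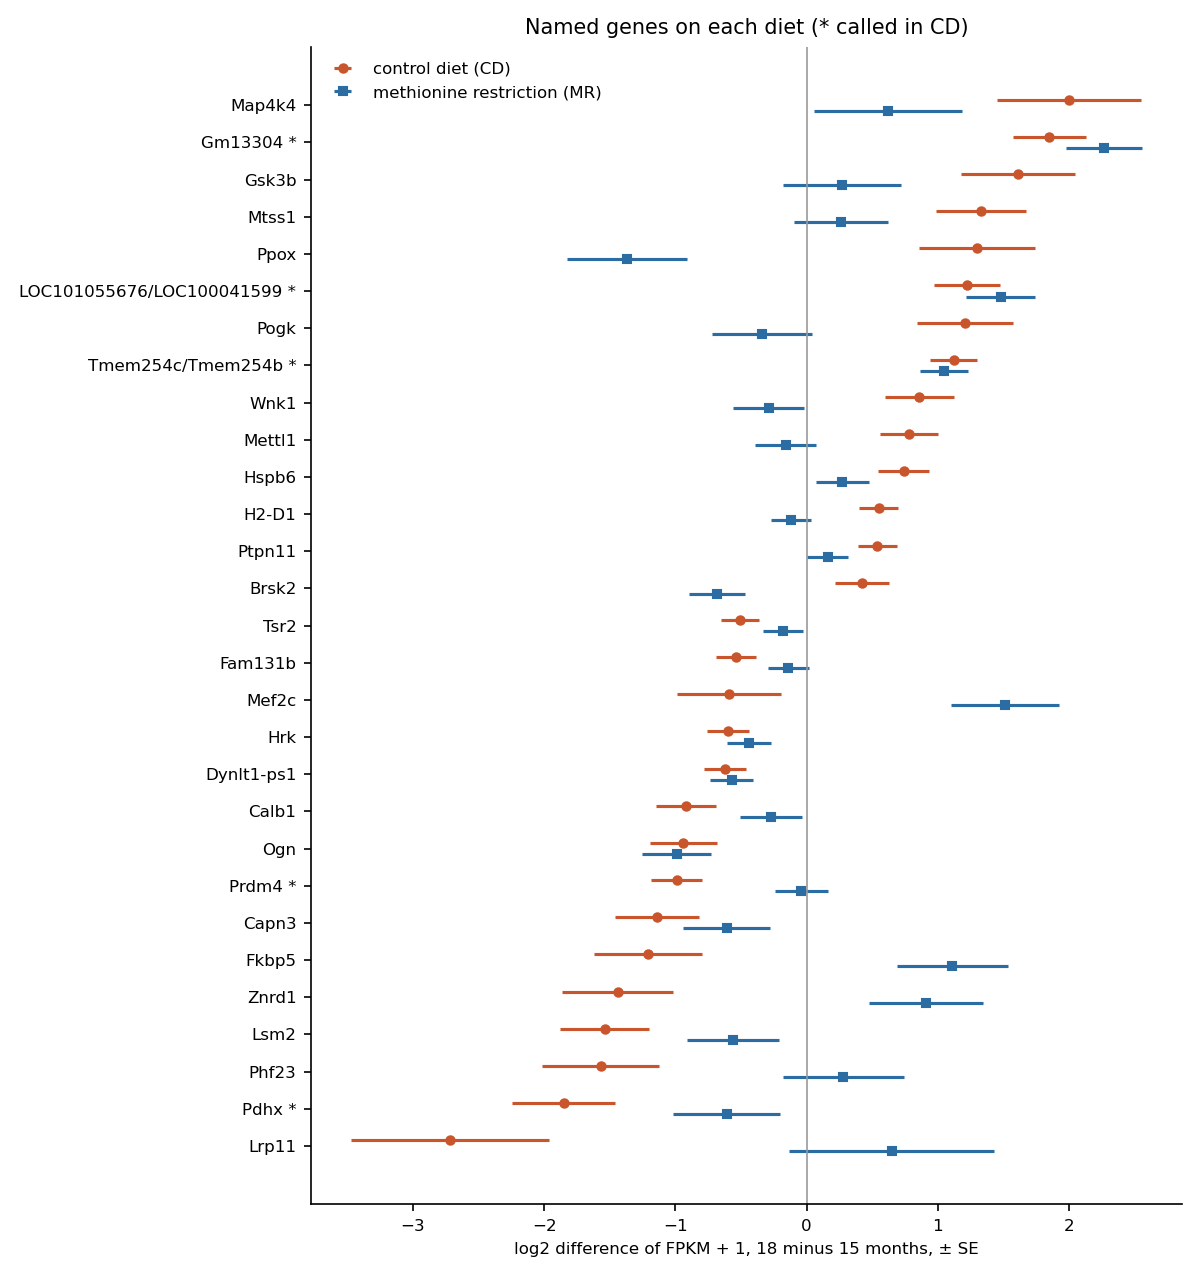
Difference between 18 and 15 months on the log2(FPKM + 1) scale in CD and in MR, with standard errors of the limma fit, for the named genes with a symbol; a star marks loci called in CD. Gm13304 and the Tmem254 locus lie on the same side on both diets, and Prdm4 lies at −0.99 in CD and −0.04 in MR.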

How the data were processed

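Hippocampal RNA of 44 mice was extracted with phenol and chloroform and sequenced on BGI-500 instruments. The values are FPKM per locus as deposited by the authors, in 1 table without read counts. Per the submitters' processing notes, Trimmomatic 0.38, HISAT2 and StringTie 1.3.4d were used with the mouse build GRCm38.p6. The annotation and the choice of loci are not given in the sources used here. Of the 12431 loci tested, 8512 carry 1 gene symbol and 2827 none. Names joined by a slash stand for 1 locus that cannot be assigned to a single gene, and a symbol on several loci is given as uncertain.

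The log2(FPKM + 1) values of all 44 libraries were fitted in limma 3.58.1 (R 4.3.3) with 6 group means, 38 residual degrees of freedom and a trend in the prior variance. P values are 2-sided and were adjusted by Benjamini-Hochberg over the 12431 loci, with 0.05 as the threshold, and every adjusted p of a locus comes from this fit or its stated alternative. The fit was tested on simulated data. Standard errors (SE) are those of the fit, and nothing beyond the labels says how the mice were housed or sampled. Library composition was compared by exact permutation over 12870 splits. These and the tables and figures were made in Python 3.11.15 (SciPy 1.17.1, pandas 2.3.3, NumPy 2.4.6, matplotlib 3.10.9). Gene positions are those of GENCODE M21.

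The members, the 45 gene lists and the tests were chosen with earlier results of these data known. Named genes are all called loci, then genes with a symbol by the smallest p until 12 higher and 12 lower were named, up to 4 members of a list, and defining markers, and some results that this would name are not reported here. Of 696 list genes 471 were tested, and no mitochondrially encoded subunit was among them. The alternatives were quantile normalization, median scaling, 0.1 as the pseudocount, a floor of 5 FPKM or none at all, lane as a factor, the label number as a block, array weights, the 16 libraries alone, and each library left out in turn. The comparison in MR under the alternatives and the counts of loci whose groups do not overlap without 1 library were added after the data were seen.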

Additional observations from a re-analysis of the deposited data

Results flagged for a closer look

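In 9 of 68 groups of 8 values 1 library stood farther from its nearest neighbour, relative to the whole range, than the critical value of 0.526 allows. That value flags about 1 in 20 groups of normally distributed values. Some of the flagged groups, such as Lsm2 in 18M-CD and MSTRG.9728 in 15M-CD, hold mostly values listed at 0. The 9 of 68 therefore cannot be read against that rate. MSTRG.9728 was listed at 0 in 18M-CD 3, the lowest of its group, and at 0.0165 FPKM in 15M-CD 3, the highest of its group. Pdhx at the called locus stood at 3.17 FPKM in 18M-CD 5, above the rest of 18M-CD, and Lsm2 at 0.286 FPKM in the same library, the only 1 not listed at 0. Mtss1 stood at 0.451 FPKM in 15M-CD 1, above the others, and Capn3 at 0.451 FPKM in the same library, below the others. Hrk was highest in 15M-CD 8 at 12.5 FPKM, and Ogn lowest in 15M-CD 7 at 1.45 FPKM. The summed FPKM was highest in 15M-CD 2 at 282327.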

How the results depend on the processing

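The 10 calls of the control diet became 1 with a filter at 5 FPKM (the Tmem254 locus, of 6991 loci tested; of the others MSTRG.43220 alone reached that floor), 4 when the 16 libraries were fitted alone (MSTRG.24886, Gm13304, the Tmem254 locus and Pdhx), and 31 with array weights (11 higher, 20 lower, all 10 among them). Fits without 1 library called 5 to 11, and the loci whose groups did not overlap numbered 5 to 14 of 12431. With lane as a factor 8 were called, 2 higher and 6 lower, of which 1, the Tmem254 locus, was among the 10, and the median of all loci was 0.04 in place of −0.03. What the numbers in the sample labels stand for is not given. Over 7 same-numbered pairs the correlations ran from −0.11 to 0.28, which cannot show whether the mice were paired, and the main fit used no pairing. With the number as a replicate block 6 loci were called, 4 higher and 2 lower, of which 5 were among the 10, and Lsm2 was added. In MR 12 calls became 1 at 5 FPKM, 19 with quantile normalization and 6 with lane as a factor. The difference between the diets went from 0 to 1 call with lane as a factor. Prdm4 turned to 0.13 within lane 3. The differences in composition, none past the test, changed sign: loci at 0 from 6 to −37.5 as a difference of medians, and over fits without 1 library between −19.5 and 16.5 for loci at 0, −0.818 and 0.395 for the percent of mitochondrial rRNA, and −7505 and 974 for summed FPKM. For these changes the cause was not tested. Among the values of lists, of called loci and of named genes with an unadjusted p under 0.05, 2852 kept direction and side of the threshold, 58 lost and 9 gained a call, 23 genes moved within lane 3, and 4 list medians moved by more than the SD of the libraries' mean list levels, all with lane as a factor: neocortex to 0.30, glutamate receptors to 0.17, sodium and calcium channels to 0.38 and PRDM to 0.12. Medians that moved by less than that SD still changed sign with lane as a factor, among them myelin from 0.28 to −0.04 and dentate granule cells from −0.17 to 0.04. Without read counts, depth gives no limit that could be stated.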

Other observations

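Markers of vessels and of neighbouring tissue were measured for what a hippocampal dissection can carry along. Endothelial markers had a median difference of 0.10 over 7 loci between 18 and 15 months on the control diet, and Cldn5, the tight junction gene of brain vessels, whose symbol stands on 2 loci, was at 0.10 at each. Pericyte and smooth muscle markers had a median of 0.18 over 4 loci, and Vtn, the pericyte gene of vitronectin, had medians of 27.7 and 33.4 FPKM. Thalamus markers had a median of −0.23 over 6 loci, neocortex markers of −0.09 over 6 and striatum markers of 0.19 over 5. In all of these lists 0 loci passed in limma and 0 had an unadjusted p under 0.05. Ependymal markers had a median of −0.11 over 6 loci, with 2 above 0 and 0 passed. The highest of them was Pltp, a phospholipid transfer gene, at 0.50 (SE 0.218; adjusted p = 0.722). It was the 1 ependymal locus higher at an unadjusted p under 0.05, against 2.11% of all loci.

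Potassium channel genes had a median of 0.06 over 15 loci. Kcnd2, the subunit of the A-type current of pyramidal cell dendrites, had medians of 12.1 and 7.5 FPKM and a difference of −0.57 (SE 0.261; adjusted p = 0.722). Cholesterol synthesis genes had a median of −0.01 over 16 loci, and heat shock and chaperone genes of −0.10 over 19. Of the 19, Cryab and Hspb1 were the 2 higher at an unadjusted p under 0.05 in the limma fit, against 2.11% of all loci.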
